A study of Mus musculus with 12 samples.

Results

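The histone genes that lie in the replication clusters of the mouse genome were taken from RNA-seq of colon tumours and adjacent colon. Members were the protein-coding genes whose GENCODE M21 symbol begins with Hist1h, Hist2h, Hist3h or Hist4h, with the values of a gene's transcripts summed, which gave 67 genes, of which 65 were among the 48448 genes of the deposited table. The rule used no expression value, though it was set with earlier results of these data known. They comprised 6 genes for the linker histone H1, 18 for H2A, 18 for H2B, 12 for H3 and 13 for H4. On GRCm38, 54 members lay on chromosome 13 between positions 21715763 and 23934851 (2.22 Mb), 10 on chromosome 3 between 96219865 and 96270132 (50.3 kb), 2 on chromosome 11 between 58948920 and 58956830, and Hist4h4 alone on chromosome 6 between 136801553 and 136804415 on the minus strand. The symbols Hist1h2bh and Hist1h2bm matched none of the rows used here.

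Histones package DNA into nucleosomes, whose core holds H2A, H2B, H3 and H4, while H1 binds the linker DNA between them. The clustered genes are transcribed mainly during S phase, when new chromatin needs new histones, and their messenger RNAs usually end in a conserved stem-loop instead of a poly(A) tail. Replication-independent histone genes lie elsewhere, mostly have introns and poly(A) tails, and are expressed through the cell cycle. In the colon, dividing cells sit in the lower crypt, and tumours hold dividing cells outside that order.

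The 12 libraries formed 4 groups of 3, all from colon of C57BL/6 mice, with tumours of the colitis-associated kind. Adjacent colon and colon tumours came from mice labelled Synbindinflox (flox adjacent and flox tumour) and from mice labelled SynbindindeltaIEC, here ΔIEC, in which Synbindin was deleted in the epithelium (ΔIEC adjacent and ΔIEC tumour). The Trappc4 gene encodes Synbindin, which belongs to the TRAPP complexes of vesicle trafficking. The labels and series text used here name neither the driver of the deletion nor the agents of the model nor the ages of the mice, and they do not say whether the 3 libraries of a group came from separate mice, so p-values measure the spread between libraries, which may be technical. Most adjacent libraries shared a description code with a tumour library, and the labels do not say whether that marks the same mouse. The main tests were unpaired. Values are FPKM, fragments per kilobase of transcript scaled to library size, which carry no read depth, so no counting interval is given.

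The deleted gene was checked first. Trappc4 stood at 17.0 ± 0.285 FPKM (SD, n = 3) in flox adjacent tissue and 11.1 ± 1.30 in ΔIEC adjacent tissue, and at 19.0 ± 1.73 in flox tumours and 11.3 ± 1.39 in ΔIEC tumours, with no overlap between genotypes in either tissue (exact permutation p = 0.1, two-sided, the smallest that 3 against 3 can give). The 8 epithelial markers were all above 0 in every library, and their summed level was 5306 to 9157 FPKM in adjacent libraries and 3767 to 5418 in tumours. The 6 fibroblast markers summed to 44.6 to 247 FPKM in adjacent libraries and 276 to 581 in tumours, and the 5 macrophage markers to 21.3 to 118 and 71.4 to 151, so the libraries held RNA of other cell types as well as epithelium. In such bulk samples fewer cells of a type and less RNA per cell cannot be told apart. The total of all transcript values, matched to a gene or not, was 534806 to 706216 FPKM in tumours and 686922 to 821487 in adjacent tissue, and the choice of scale therefore bears on every tumour comparison.

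The 3′ stem-loop is the feature that most of these messages share, so it was read from the GENCODE M21 transcripts as a stem of 6 paired bases that starts with GG around a loop of 4 bases. It was found in the models of 44 members, in 6 versions. One version was shared by 26 genes of the classes H1, H2A, H2B and H3, and the 11 H4 genes with a stem-loop had 3 versions of their own. The lines below show it for members on which the results turn, 5′ to 3′ in DNA letters, with both arms of the stem and the loop in capitals and 5 flanking bases on each side.
Hist1h1c: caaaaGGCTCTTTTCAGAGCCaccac
Hist3h2a: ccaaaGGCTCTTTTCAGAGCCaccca
Hist3h2ba: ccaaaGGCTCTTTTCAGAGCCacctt
Hist1h3c: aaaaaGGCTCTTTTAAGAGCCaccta
Hist1h4c: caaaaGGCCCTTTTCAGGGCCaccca
Hist1h4d: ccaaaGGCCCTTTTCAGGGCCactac
Hist4h4: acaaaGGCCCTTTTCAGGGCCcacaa
The H4 genes shown carried GGCCC where Hist1h1c, Hist3h2a and Hist3h2ba carried GGCTC, with the matching change on the other arm. The annotated models differed in what follows the stem-loop: 22 members ended within 80 bases after it, 22 ran on past it, 11 were annotated as coding sequence only, and 12 had more than that but no such stem-loop. Hist4h4 ran 2445 bases past it, Hist3h2a 1643, Hist1h1c 840, Hist1h4c 454 and Hist3h2ba 169, whereas Hist1h2bc, a gene with a 2-exon model, had none. The labels name a TruSeq RNA kit and total RNA without saying whether poly(A) RNA was selected, which bears on how messages without a tail are captured.

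The members also repeat one another. Over the windows of 50 bases in each member's transcripts, a median of 47.0% also occurred in another member, and 30 members shared over 50% of their windows. The values of such genes are uncertain, because no source used here says how reads were assigned between near-identical copies. Hist3h2ba, Hist4h4, Hist2h2bb, Hist1h1a, Hist1h1b, Hist2h2be and Hist1h1t shared none, and Hist1h1c shared 8.54%, Hist1h4c 19.6% and Hist1h2bc 29.4%. By annotation, Hist1h1e overlapped Hist1h2be and Gm11398 on its own strand, Hist3h2a overlapped Trim17 on its own strand, and Hist2h2ab overlapped the antisense gene Gm15444.

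Many members were abundant in the colon. Of the 65 in the table, 24 had a mean of at least 100 FPKM over the 12 libraries, 28 lay between 10 and 100, 5 between 1 and 10, and 8 below 1. Hist1h4d, an H4 gene, led with 588.6 FPKM, followed by the H4 gene Hist1h4h with 352.6, the H2A gene Hist1h2ak with 266.4, the H4 gene Hist1h4f with 238.0, the H2B gene Hist2h2bb with 230.8 and the H2B gene Hist1h2bc with 199.98. These 6 genes held 31.2% of the members' summed level and stood between the 98.5th and 99.6th percentile of protein-coding genes with a nonzero mean. The highest H1 gene was Hist1h1d with 165.0 FPKM and the highest H3 gene Hist1h3c with 190.8.

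**Figure D1:**
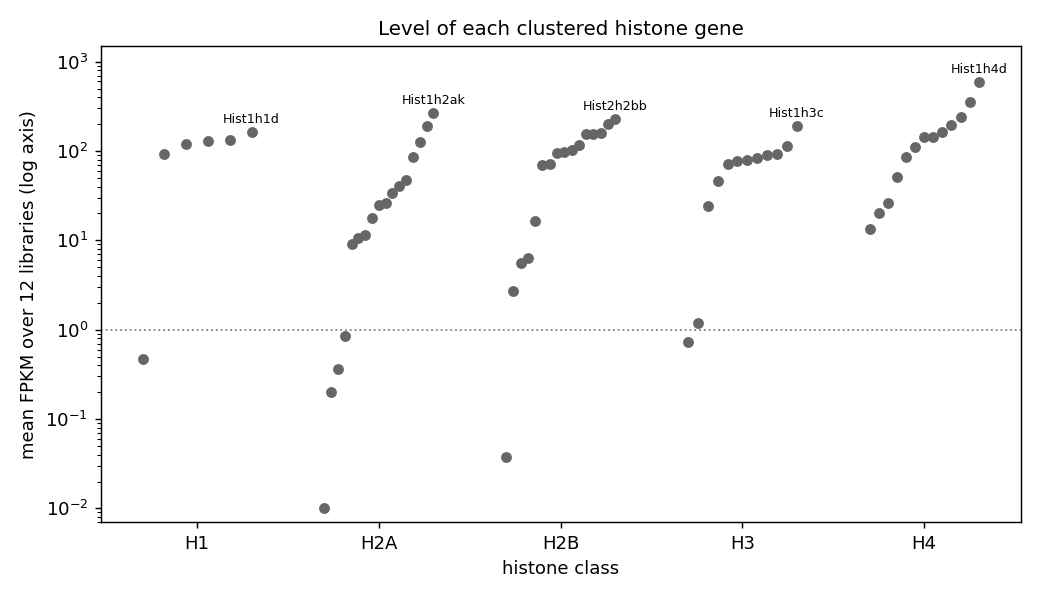
Mean FPKM over 12 libraries (log axis) of each clustered histone gene, by class, with the highest gene of each class named. Each class except H4, whose lowest member was at 13.6 FPKM, held members below the dotted line at 1 FPKM; 1 gene below 0.01 FPKM is drawn at 0.01 and 1 gene listed at 0 is not drawn.

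H4 genes made up 35.4% of the members' summed level, H2B genes 24.7%, H2A genes 14.8%, H3 genes 14.5% and H1 genes 10.7%. The chromosome 13 cluster held 90.3% of it. FPKM is a level per transcript length, so these shares compare genes on that scale. Of the 8 members below 1 FPKM, 3 are known as testis-type histone genes, Hist1h1t, Hist1h2aa and Hist1h2ba. The other 5 shared most of their windows with other members. Hist2h2aa1, listed at 0 in all 12 libraries, and Hist2h2aa2 shared 89.2% and all of them, and Hist1h2ao, Hist1h2ap and Hist2h3c2 shared 93.5%, 93.1% and 63.5%. Such sharing was not particular to low members: Hist1h4m shared 89.8% at a mean of 162.5 FPKM. Testing was limited to genes that reached 1 FPKM in 3 or more libraries, which 58 members did.

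Promoters set the classes apart further. In the 250 bases before the RefSeq start, available for 61 members (62 windows, GRCm38.p6), both strands were searched for 4 motifs. CCAAT was found in 6 of 6 H1, 17 of 17 H2A, 17 of 17 H2B and 8 of 10 H3 windows but 3 of 12 H4 windows, beside 33.9% of all 32851 windows of that length. The octamer ATTTGCAT, a site known to bind Oct-1 in H2B promoters, was found in 7 of 17 H2A and 7 of 17 H2B windows and in none of the H1, H3 and H4 windows, beside 1.60% of all. The sequence AAACACA, known as the H1 box, was found in 5 of 6 H1 windows, 2 of 17 H2A and 2 of 17 H2B windows and none of the others, beside 6.25% of all. TATAAA was found in 4 of 6 H1, 7 of 17 H2A, 8 of 17 H2B, 4 of 10 H3 and 6 of 12 H4 windows, beside 12.4% of all. H2A and H2B genes often share a window between divergent starts, so these counts are not independent. The 3 windows below belong to genes discussed under tumours, 5′ to 3′ on the gene's strand, which is plus for all 3, with matches to these motifs on either strand in capitals.
Hist1h1c, chr13:23738557-23738806: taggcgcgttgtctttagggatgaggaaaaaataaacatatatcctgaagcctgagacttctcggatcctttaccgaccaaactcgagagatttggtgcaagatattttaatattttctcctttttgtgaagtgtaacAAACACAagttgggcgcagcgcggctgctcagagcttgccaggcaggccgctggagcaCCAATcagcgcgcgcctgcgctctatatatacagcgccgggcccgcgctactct
Hist3h2ba, chr11:58948661-58948910: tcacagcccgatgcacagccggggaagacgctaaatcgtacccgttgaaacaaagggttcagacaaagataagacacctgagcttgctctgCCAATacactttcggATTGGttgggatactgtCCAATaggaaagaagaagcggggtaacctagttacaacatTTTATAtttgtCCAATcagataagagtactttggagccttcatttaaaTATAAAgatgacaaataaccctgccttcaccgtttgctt
Hist3h2a, chr11:58954435-58954684: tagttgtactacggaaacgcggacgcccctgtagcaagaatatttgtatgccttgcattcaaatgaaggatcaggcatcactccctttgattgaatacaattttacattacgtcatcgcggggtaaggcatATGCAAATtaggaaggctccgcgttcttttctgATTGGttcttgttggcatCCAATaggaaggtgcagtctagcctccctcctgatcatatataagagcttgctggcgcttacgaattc
The Hist1h1c window holds the H1 box and CCAAT, that of Hist3h2ba repeated CCAAT and TATAAA, and that of Hist3h2a the octamer and CCAAT. A match is a description of the letters and not a shown binding site.

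Taken as a sum, the members differed more between libraries of one group than between groups. The summed level was 6464, 4765 and 5389 FPKM in flox adjacent replicates 1 to 3 and 4220, 8035 and 5452 in ΔIEC adjacent replicates 1 to 3. In flox tumours it was 5077, 6688 and 7160 and in ΔIEC tumours 6019, 5788 and 7180. The highest and the lowest library of the 12 were thus both ΔIEC adjacent tissue, and all 4 groups overlapped. As a share of the protein-coding sum, the members took 0.887 to 1.36% in flox adjacent, 0.773 to 1.83% in ΔIEC adjacent, 1.43 to 1.85% in flox tumours and 1.52 to 1.83% in ΔIEC tumours. On that scale each flox tumour lay above each flox adjacent library, while ΔIEC adjacent replicate 2 lay within the tumour range.

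**Figure D2:**
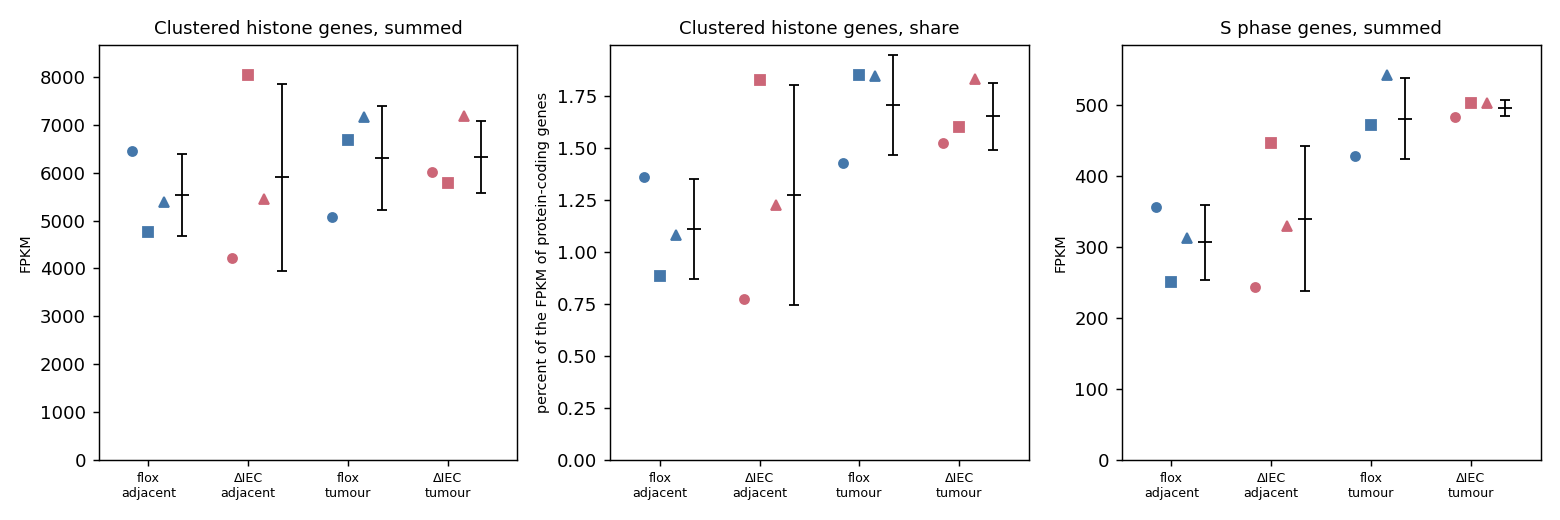
Summed FPKM of the clustered histone genes, their percent of the protein-coding FPKM, and summed FPKM of 22 S phase genes, per library (points, with circle, square and triangle for replicates 1, 2 and 3) with mean ± SD (n = 3). In all 3 panels ΔIEC adjacent replicate 2 was the highest adjacent library and ΔIEC adjacent replicate 1 the lowest.

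The same 2 libraries stood at the ends of most single members. Of the 58 tested members, 35 had their highest value of the 12 libraries in ΔIEC adjacent replicate 2, and 51 their highest adjacent value there. ΔIEC adjacent replicate 1 held the lowest value for 36 members and flox adjacent replicate 2 for 10. The summed level of 22 S phase genes, such as Mcm4 of the replicative helicase and Rrm2 of ribonucleotide reductase, was likewise 447 FPKM in ΔIEC adjacent replicate 2 and 244 in ΔIEC adjacent replicate 1, with 251 to 356 in the other adjacent libraries and 429 to 542 in tumours. Beside this, ΔIEC adjacent replicate 2 had the lowest summed epithelial markers of the adjacent libraries (5306 FPKM) and the highest summed fibroblast markers (247) and B and plasma cell markers (1012), and ΔIEC adjacent replicate 1 the lowest fibroblast markers (44.6). ΔIEC adjacent replicate 3 had 205 and 836 for fibroblast and B and plasma cell markers, at a summed histone level of 5452. Flox adjacent replicate 2 had fibroblast markers of 53.0, at a histone level of 4765. The part of these cell types in the histone levels was not tested.

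**Figure D3:**
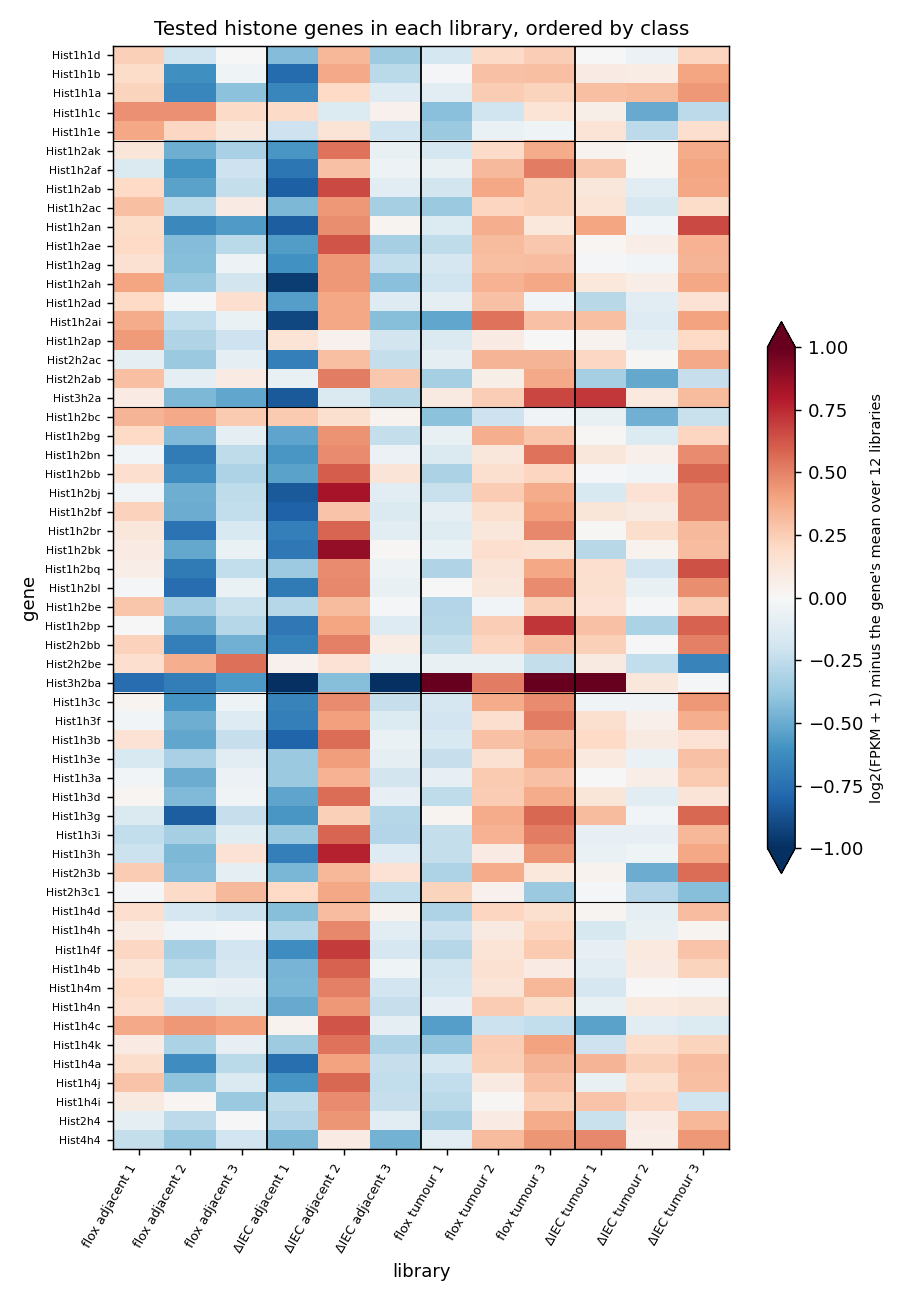
Each of the 58 tested histone genes (rows, by class, black lines between classes) in each library (columns, black lines between groups), coloured by log2(FPKM + 1) minus the gene's mean over 12 libraries. ΔIEC adjacent replicate 2 is red in most rows and ΔIEC adjacent replicate 1 blue, while Hist1h2bc and Hist3h2ba separate adjacent from tumour libraries.

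The first question was which histone genes differ between tumours and adjacent tissue of flox mice. Of 58 tested members, 5 (8.62%) passed limma's test at an adjusted p below 0.05, beside 36.3% of all 16970 tested genes, with 2 higher in tumours (beside 16.6% of all genes called higher) and 3 lower (beside 19.7%). The median member difference was 0.28 on the log2(FPKM + 1) scale and 49 members were above 0, while the median of all tested genes was -0.01. In ΔIEC mice 5 of 58 passed as well, 3 higher and 2 lower, beside 29.4% of all genes, 13.9% higher and 15.5% lower. There the median was 0.18 with 49 members above 0, beside -0.03 over all genes, but without ΔIEC adjacent replicate 1 only 23 of 58 members were above 0. The count of members called was thus below the background share in both genotypes. Most members pointed upward in flox mice without any single library (42 to 52 above 0), whereas in ΔIEC mice the upward majority rested on ΔIEC adjacent replicate 1. On this scale a fold change understates the change of low genes.

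These counts depended on the scale. When protein-coding genes alone were rescaled to a common total, the median of all genes moved to 0.40 in flox and 0.27 in ΔIEC. On that scale 17 members were called higher and 0 lower in flox mice (beside 44% and 11% of all genes) and 5 higher and 0 lower in ΔIEC mice (beside 31.1% and 9.43%), with member medians of 0.72 and 0.49. Quantile normalization, which left the median of all genes at 0.01 in flox and 0.0028 in ΔIEC, called 13 higher and 1 lower in flox mice (beside 18.2% and 17.6%) and 4 higher and 1 lower in ΔIEC mice (beside 16.2% and 14.1%), with member medians of 0.63 and 0.40. The directions that follow are on the deposited scale.

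By class, the flox medians were 0.36 for 15 tested H2B genes, 0.35 for 11 H3 genes, 0.27 for 14 H2A genes, 0.13 for 13 H4 genes and 0.07 for 5 H1 genes. In ΔIEC mice they were 0.20, 0.12, 0.23, 0.10 and 0.20 in the same order. Of the H3 genes 10 of 11 and of the H4 genes 12 of 13 were above 0 in flox mice, and 10 of 11 and 10 of 13 in ΔIEC mice. Without ΔIEC adjacent replicate 1 the ΔIEC counts were 4 of 11 H3, 2 of 13 H4 and 4 of 15 H2B genes, so most genes of these classes then lay below 0. Single libraries moved these medians: over all members the flox median ranged from 0.13 without flox adjacent replicate 2 to 0.44 without flox tumour replicate 1, and the ΔIEC median from -0.04 without ΔIEC adjacent replicate 1 to 0.46 without ΔIEC adjacent replicate 2.

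**Figure D4:**
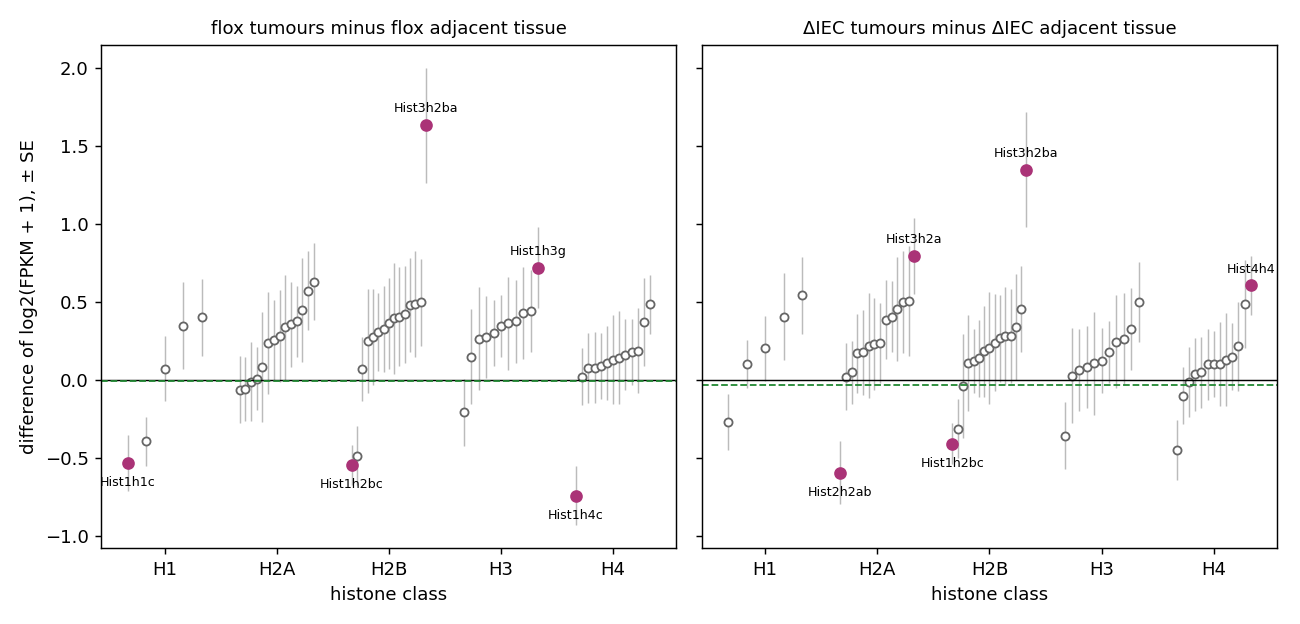
Difference of log2(FPKM + 1) between tumours and adjacent tissue (± SE) for each tested histone gene by class, in flox (left) and ΔIEC mice (right); filled points passed limma's test at an adjusted p below 0.05 and the green dashed line marks the median of all tested genes. Most open points lie above 0 in both panels, and Hist3h2ba stands highest at 1.63 and 1.35.

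Hist3h2ba, an H2B gene of the chromosome 11 cluster (chr11, 58948920 to 58949533, plus strand, 1 exon), rose most. It was at 2.59, 2.76 and 3.09 FPKM in flox adjacent and 12.2, 7.66 and 13.5 in flox tumour replicates 1 to 3. In ΔIEC mice it was at 1.98, 3.53 and 2.03 in adjacent tissue and 16.2, 5.56 and 4.99 in tumours. Every tumour lay above every adjacent library, and ΔIEC tumour replicate 1 was highest. The difference was 1.63 ± 0.37 (SE) in flox mice (3.10-fold, adjusted p = 0.00728) and 1.35 ± 0.37 in ΔIEC mice (2.55-fold, adjusted p = 0.0212). The ΔIEC call was lost without ΔIEC adjacent replicate 1 (adjusted p = 0.0670) or replicate 3 (0.0607), and when the 2 ΔIEC groups were fitted alone (0.0817). The flox call held without each flox library in turn and on both other scales.

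Its neighbour Hist3h2a, an H2A gene downstream on the same strand (chr11, 58954685 to 58956830), was at 26.6, 18.1 and 17.2 FPKM in flox adjacent and 26.7, 30.0 and 40.5 in flox tumour replicates 1 to 3. In ΔIEC mice it was at 13.6, 22.6 and 20.5 in adjacent tissue and 41.6, 26.9 and 31.5 in tumours. Tumours and adjacent libraries did not overlap within either genotype, though flox replicates 1 of both tissues nearly met. It rose in ΔIEC tumours by 0.79 ± 0.24 (1.73-fold, adjusted p = 0.0341) and had a difference of 0.63 ± 0.24 in flox tumours that missed the threshold (adjusted p = 0.0669). The ΔIEC call was lost without ΔIEC adjacent replicate 1 (adjusted p = 0.116) or 3 (0.0530), without ΔIEC tumour replicate 1 (0.126) or 3 (0.0601), with no filter on low genes (0.0609) and with the ΔIEC groups alone (0.0707). The pseudogene Hist3h2bb-ps of the same name group, no member and chosen after its values were seen, had means of 7.13 ± 2.34 and 12.7 ± 4.29 FPKM in flox adjacent and tumour and 7.85 ± 2.94 and 14.7 ± 7.39 in ΔIEC (exact permutation p = 0.2 in each genotype).

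Hist4h4, the H4 gene of chromosome 6, was at 16.5, 14.8 and 17.1 FPKM in flox adjacent and 18.2, 24.7 and 27.0 in flox tumour replicates 1 to 3, and at 14.1, 20.9 and 13.9 in ΔIEC adjacent and 27.9, 20.6 and 26.9 in ΔIEC tumour replicates. In ΔIEC mice adjacent replicate 2 lay just above tumour replicate 2, and in flox mice the groups did not overlap. The difference was 0.61 ± 0.19 in ΔIEC mice (1.52-fold, adjusted p = 0.0355), lost without ΔIEC adjacent replicate 1 (adjusted p = 0.110) or 3 (0.107), without ΔIEC tumour replicate 1 (0.117) or 3 (0.0882), with no filter (0.0630) and with the ΔIEC groups alone (0.0889). In flox mice it was 0.49 ± 0.19 and missed the threshold (adjusted p = 0.0667).

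Hist1h3g, an H3 gene, was the only member of the chromosome 13 cluster called higher. It was at 66.6, 41.2 and 62.5 FPKM in flox adjacent and 75.0, 95.3 and 109.8 in flox tumour replicates 1 to 3, without overlap. The difference of 0.72 ± 0.26 (1.65-fold) had an adjusted p of 0.0497, at the edge of the threshold, and the call was lost without flox adjacent replicate 2 (adjusted p = 0.181) or 3 (0.0725) and without flox tumour replicate 2 (0.113) or 3 (0.151). It was also lost with no filter (0.0833) and without trend and robust moderation of the variances (0.0540). ΔIEC adjacent tissue was at 48.9, 86.9 and 60.2 FPKM and ΔIEC tumours at 92.1, 72.3 and 110.0, which overlapped (0.50 ± 0.26, adjusted p = 0.167). Hist1h3g shared 54.1% of its windows with other members.

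**Figure D5:**
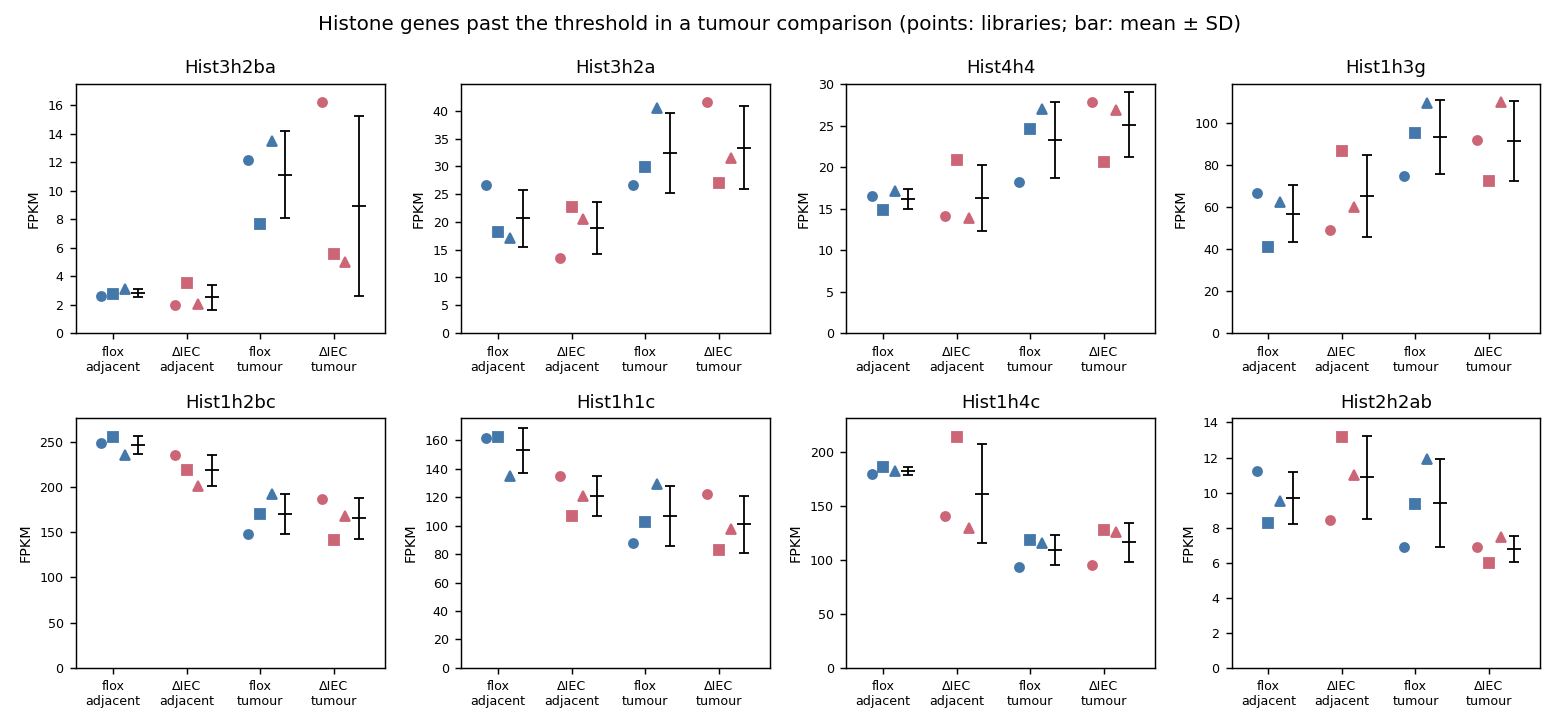
FPKM of the 8 histone genes past the threshold in a tumour comparison, per library (points, with circle, square and triangle for replicates 1, 2 and 3) with mean ± SD (n = 3) in black. Hist3h2ba lies at 3.53 FPKM or less in every adjacent library and at 4.99 or more in every tumour, and Hist1h2bc is lower in every tumour than in every adjacent library.

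The members called lower were Hist1h2bc in both genotypes, Hist1h4c and Hist1h1c in flox tumours and Hist2h2ab in ΔIEC tumours. Hist1h2bc, an H2B gene (chr13, 23684199 to 23692908, plus strand, 2 exons), was at 249.1, 255.3 and 235.5 FPKM in flox adjacent and 147.6, 169.7 and 191.8 in flox tumour replicates 1 to 3. In ΔIEC mice it was at 235.2, 219.2 and 201.0 in adjacent tissue and 186.4, 140.8 and 168.2 in tumours. All 6 tumours lay below all 6 adjacent libraries. It fell by 0.54 ± 0.13 in flox mice (1.46-fold lower, adjusted p = 0.00962) and by 0.41 ± 0.13 in ΔIEC mice (1.33-fold lower, adjusted p = 0.0389). On the rescaled values both differences were near 0, at -0.10 in flox (adjusted p = 0.481) and -0.10 in ΔIEC mice (adjusted p = 0.510), and quantile normalization gave -0.03 and -0.07 (adjusted p = 0.847 and 0.644). The flox call held without each library, and the ΔIEC call was lost without ΔIEC adjacent replicate 1 (adjusted p = 0.116) or 2 (0.0699), without ΔIEC tumour replicate 2 (0.131) or 3 (0.0643), with no filter (0.0626) and with the ΔIEC groups alone (0.103).

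Hist1h4c, an H4 gene (chr13, 23697635 to 23698454, minus strand), was at 179.7, 186.7 and 182.6 FPKM in flox adjacent and 93.8, 119.0 and 116.4 in flox tumour replicates 1 to 3. ΔIEC adjacent tissue was at 141.3, 214.5 and 129.4 and ΔIEC tumours at 95.1, 128.4 and 125.8. Neither pair of groups overlapped, though in ΔIEC mice the gap was narrow. It fell by 0.74 ± 0.19 in flox mice (1.67-fold lower, adjusted p = 0.0133), a call lost without flox tumour replicate 1 (adjusted p = 0.0529), on the rescaled values (-0.29, adjusted p = 0.272) and under quantile normalization (-0.32, adjusted p = 0.233). In ΔIEC mice the difference was -0.45 ± 0.19 (adjusted p = 0.101).

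Hist1h1c, the gene for an H1 linker histone (chr13, 23738808 to 23740367, plus strand), was at 161.8, 162.5 and 134.7 FPKM in flox adjacent and 87.8, 102.5 and 129.5 in flox tumour replicates 1 to 3. It fell by 0.53 ± 0.18 (1.44-fold lower, adjusted p = 0.0406), and the groups did not overlap. The call was lost without flox adjacent replicate 1 (adjusted p = 0.0947) or 2 (0.119), without flox tumour replicate 1 (0.141) or 2 (0.0986), with no filter (0.0673), on the rescaled values (-0.08, adjusted p = 0.645) and under quantile normalization (-0.11, adjusted p = 0.593). ΔIEC adjacent tissue was at 134.7, 107.0 and 121.1 FPKM and ΔIEC tumours at 122.5, 82.7 and 98.0, which overlapped (-0.27 ± 0.18, adjusted p = 0.280).

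Hist2h2ab, an H2A gene of the chromosome 3 cluster, was called lower in ΔIEC tumours, by 0.60 ± 0.20 (1.51-fold lower, adjusted p = 0.0489). It was at 8.44, 13.2 and 11.03 FPKM in ΔIEC adjacent and 6.89, 5.98 and 7.47 in ΔIEC tumour replicates 1 to 3. The call ended without 5 of the 6 ΔIEC libraries, namely adjacent replicate 2 (adjusted p = 0.136) and 3 (0.107) and tumour replicates 1 (0.107), 2 (0.137) and 3 (0.0626). It also ended on the rescaled values (-0.32, adjusted p = 0.289), with no filter (0.0834), with the ΔIEC groups alone (0.0754) and without trend and robust moderation (0.0523). In flox mice the difference was -0.06 ± 0.20 (adjusted p = 0.851), with 11.2, 8.28 and 9.52 FPKM in adjacent tissue and 6.92, 9.36 and 11.9 in tumours.

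Of the 6 most abundant members, Hist1h2bc passed as given above and the other 5 passed in neither tumour comparison. Hist1h4d was at 654.5, 517.9 and 500.9 FPKM in flox adjacent and 468.1, 672.9 and 650.4 in flox tumour replicates 1 to 3, and at 432.5, 718.1 and 596.3 in ΔIEC adjacent and 591.1, 542.2 and 718.3 in ΔIEC tumour replicates, and the groups overlapped widely. Its tumour differences were 0.09 ± 0.21 (flox) and 0.10 ± 0.21 (ΔIEC), with adjusted p of 0.769 and 0.740. For Hist1h4h they were 0.02 ± 0.18 and -0.10 ± 0.18, for Hist1h4f 0.14 ± 0.30 and 0.13 ± 0.30, and for the H3 gene Hist1h3c 0.43 ± 0.29 and 0.27 ± 0.29. For Hist1h2ak, Hist2h2bb and Hist1h1d they were 0.36 ± 0.27, 0.41 ± 0.32 and 0.07 ± 0.21 in flox and 0.18 ± 0.27, 0.28 ± 0.32 and 0.20 ± 0.21 in ΔIEC mice. Differences of this size, against these standard errors, were not detectable with 3 libraries a group.

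The 3′ end of the model and the calls lay as follows. Of the 18 tested members whose model ended near the stem-loop, 0 were called by limma in either genotype, beside 36.3% (flox) and 29.4% (ΔIEC) of all genes. At an unadjusted limma p below 0.05 there were 0 of these 18 in either genotype, beside 7986 (flox) and 7112 (ΔIEC) of all 16970 genes. Of the 19 that ran past the stem-loop, 1 was higher and 2 lower in flox mice and 3 were higher in ΔIEC mice. The 12 with a longer model but no stem-loop gave 1 higher and 1 lower in flox mice and 2 lower in ΔIEC mice, and the 9 coding-only models gave 0 in both, with 0 at an unadjusted p below 0.05. Medians were 0.27, 0.13, 0.36 and 0.41 in flox mice in that order and 0.16, 0.12, 0.31 and 0.27 in ΔIEC mice. The 5 members with a spliced model were all H2B genes and included Hist1h2bc, the 1 of them that was called. Calls also fell mainly on members with few repeats: of 26 tested members with over 50% shared windows 1 was called in flox and 0 in ΔIEC mice, and of the other 32, 4 in flox and 5 in ΔIEC mice, beside the same 36.3% and 29.4% of all genes. Each of these counts is below that share. The difference between these kinds of model was not tested.

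The next comparison was between genotypes. In adjacent tissue 0 of 58 members passed limma's test between ΔIEC and flox, as did 0% of all genes, and 0 members had an unadjusted p below 0.05, beside 702 of all genes. The background rested on ΔIEC adjacent replicate 1: without it 290 of all genes were called higher in ΔIEC and 9 lower, with 2580 at an unadjusted p below 0.05, and still 0 members were called. Member differences ranged from -0.34 for Hist1h1c to 0.32 for Hist1h2bb, with a median of 0.08. The smallest p belonged to Hist1h1e, a linker histone gene, at 119.9, 105.7 and 98.7 FPKM in flox adjacent and 79.3, 100.5 and 79.5 in ΔIEC adjacent replicates 1 to 3, with overlap (-0.32 ± 0.15, adjusted p = 0.931). The H1 median was -0.16 and that of H2B 0.18. The median over all members moved with the 2 extreme ΔIEC libraries: it was 0.28 without ΔIEC adjacent replicate 1 and -0.20 without ΔIEC adjacent replicate 2.

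In tumours 0 of 58 members passed between genotypes and 0% of all genes did, with 0 members and 317 of all genes at an unadjusted p below 0.05. The median difference was 0.0046, with 30 members above 0 and 28 below. The smallest p belonged to Hist2h2ab, lower in ΔIEC tumours by 0.39 ± 0.20 without passing (adjusted p = 1). Hist3h2ba differed by -0.43 ± 0.37, with a 95% interval of -1.25 to 0.39. A test of whether the tumour difference itself depended on genotype called 0 of 58 members and 0% of all genes, with 1 member and 448 of all genes at an unadjusted p below 0.05 (1495 of all genes without ΔIEC adjacent replicate 1). That member was Hist1h1e, at 70.6, 87.2 and 88.7 FPKM in flox tumours and 100.5, 76.1 and 102.6 in ΔIEC tumours, with tumour differences of -0.39 ± 0.15 in flox and 0.10 ± 0.15 in ΔIEC mice (limma's interaction 0.50 ± 0.22, adjusted p = 0.9998). Calls made in 1 genotype and not in the other are therefore not shown to differ between them.

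Genes that work with the clustered histones moved as follows. The S phase list gave 11 of 22 higher and 0 lower in flox tumours and 9 of 22 higher and 0 lower in ΔIEC tumours, with medians of 0.63 and 0.53, beside 16.6% and 13.9% of all genes called higher. On the rescaled values 21 and 13 were higher, beside 44% and 31.1% of all genes. With the ΔIEC groups alone 0 of 22 were called in ΔIEC tumours, beside 1136 higher and 1428 lower of all 16970 genes. Rrm2 rose by 1.09 ± 0.29 and 1.11 ± 0.29 (adjusted p = 0.0147 and 0.0168), Gins1, a subunit of the replicative helicase complex, by 0.96 ± 0.23 and 0.95 ± 0.23, and Rrm1 by 0.93 ± 0.27 and 0.90 ± 0.27. Mcm4 rose by 0.92 ± 0.23 and 0.80 ± 0.23 and Mcm7 by 0.83 ± 0.21 and 0.85 ± 0.21. The S phase list held the larger share of calls at a larger median than the clustered histones in both genotypes, which was not tested and did not hold for the calls with the ΔIEC groups alone, where both had 0. Its counts moved with single libraries too. In flox mice they were 3 without flox adjacent replicate 2 and 16 without flox adjacent replicate 1. Of all 16970 genes, 1659 and 2610 were then called higher. In ΔIEC mice they were 3 without ΔIEC adjacent replicate 1 and 14 without ΔIEC adjacent replicate 2, beside 1537 and 2354 of all genes.

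Chaperones and the acetylation of new histones, a list of 21 genes that shares Mcm2 with the S phase list, gave 13 higher and 2 lower in flox tumours and 12 higher and 2 lower in ΔIEC tumours, with medians of 0.44 and 0.43, beside 16.6% and 13.9% of all genes called higher and 19.7% and 15.5% lower. The higher calls fell to 4 without flox adjacent replicate 2 and 8 without flox tumour replicate 2 in flox mice. All genes called higher were then 1659 and 2103 of 16970. In ΔIEC mice the list's higher calls fell to 6 without ΔIEC adjacent replicate 1, 7 without ΔIEC tumour replicate 1 or 2, and 4 with the ΔIEC groups alone. Of all 16970 genes, 1537, 1364 or 1781, and 1136 were then called higher. Nap1l1, which carries H2A and H2B, rose by 1.22 ± 0.27 in flox and 1.16 ± 0.27 in ΔIEC mice (adjusted p = 0.00676 and 0.0111). Chaf1b, of the assembly factor CAF-1, rose by 0.87 ± 0.21 and 0.85 ± 0.21, Hat1, which acetylates new H4, by 0.73 ± 0.19 and 0.70 ± 0.19, and Npm1 by 0.70 ± 0.15 and 1.06 ± 0.15. Ubn1, of the HIRA complex, and Hjurp, the chaperone of the centromeric H3 variant, were the 2 lower genes in both. On the rescaled values neither was called: the flox differences were 0.06 for Ubn1 and 0.10 for Hjurp, and the ΔIEC differences -0.24 (adjusted p = 0.113) and -0.27 (adjusted p = 0.125). Quantile normalization left flox Hjurp at 0.0107 (adjusted p = 0.955). In flox mice the list had 0 lower calls without any one of 5 of the 6 libraries, and 1 without flox adjacent replicate 1. All genes called lower were then 2232 to 2641 and 3301 of 16970.

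Of the 11 replication-independent histone genes, 4 were higher and 1 lower in flox tumours and 4 higher and 0 lower in ΔIEC tumours, with a median of 0.28 in each, beside 16.6% and 13.9% of all genes called higher. The higher calls fell to 2 without flox adjacent replicate 2 or flox tumour replicate 3 in flox mice. Of all 16970 genes, 1659 or 1985 were then called higher. In ΔIEC mice the list's higher calls fell to 2 without ΔIEC adjacent replicate 1 and to 1 without ΔIEC tumour replicate 1 or with the ΔIEC groups alone. Beside these, 1537, 1364 and 1136 of all genes were called higher. A filter at 5 FPKM, which tested 9 of the genes, left 2 in each genotype, beside 1975 (flox) and 1866 (ΔIEC) of all 11251 genes. On the rescaled values 9 of the 11 were called higher in each, beside 44% and 31.1% of all genes, and under quantile normalization 6 in each, beside 18.2% and 16.2%. H1fx, a linker histone gene, was at 0.788 ± 0.438 FPKM in flox adjacent tissue and 4.31 ± 0.540 in flox tumours, and at 0.620 ± 0.176 and 2.94 ± 1.25 in ΔIEC mice, so it rose by 1.60 ± 0.25 and 1.24 ± 0.25 (adjusted p = 0.00114 and 0.00542). Its adjacent means were below the 1 FPKM of the filter, so H1fx entered the test through the tumour libraries, where it was then called higher. H2afy2, for a macroH2A, rose by 1.33 ± 0.33 and 1.30 ± 0.33, H2afz, for H2A.Z, by 0.70 ± 0.20 and 0.68 ± 0.20, and H3f3b, for H3.3, by 0.50 ± 0.18 and 0.68 ± 0.18. H1f0, a linker histone gene known from non-dividing cells, fell by 0.83 ± 0.23 in flox tumours (adjusted p = 0.0179), from 89.4 ± 2.77 to 49.9 ± 4.497 FPKM, and this call was lost on the rescaled values (-0.39, adjusted p = 0.124) and under quantile normalization (-0.48, adjusted p = 0.0982), and also without flox adjacent replicate 2 or flox tumour replicate 1. In ΔIEC mice its difference was -0.38 (adjusted p = 0.231).

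Factors of histone gene transcription and 3′ end processing were largely below the threshold. Of 18 tested genes, 1 was higher in flox tumours and 3 in ΔIEC tumours and 0 were lower in either, with medians of 0.14 and 0.11, beside 16.6% and 13.9% of all genes called higher. The flox count fell to 0 with no filter and without each flox library except adjacent replicate 1, without which it was 2. All genes called higher were 2650 of 31599 with no filter, 1659 to 2103 of 16970 without those libraries, and 2610 without adjacent replicate 1. The ΔIEC calls fell to 0 without ΔIEC adjacent replicate 1, without ΔIEC tumour replicate 1 and with the ΔIEC groups alone, and to 1 without ΔIEC tumour replicate 2 or with no filter. In that order, all genes called higher were 1537, 1364, 1136 and 1781 of 16970, and 2080 of 31599. Eri1, an exonuclease that trims the histone stem-loop, rose by 0.37 ± 0.13 and 0.42 ± 0.13 (adjusted p = 0.0408 and 0.0302), and the cleavage factor genes Cpsf2 and Cstf2 rose in ΔIEC tumours by 0.46 ± 0.13 and 0.46 ± 0.14. On the rescaled values 12 of the 18 were called higher in flox and 7 in ΔIEC tumours, beside 44% and 31.1% of all genes, and under quantile normalization 4 in each, beside 18.2% and 16.2%. Between genotypes, in either tissue, 0 genes of these 4 lists passed limma's test, and at an unadjusted p below 0.05 there was 1, the S phase gene Ccne1 for cyclin E1 in adjacent tissue (0.48 ± 0.21, adjusted p = 0.931).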

How the data were processed

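RNA-seq was made from 12 mouse colon libraries, 4 groups of 3. The deposited table holds log2 values of FPKM + 1 per transcript, made by the authors; the submitters' processing notes name FastQC, STAR 2.5, Cuffnorm and GRCm38 without their roles or settings. All 12 columns were matched by the code in the description label, and 0 stayed unmatched. Of 123062 transcripts, 118004 (95.9%) matched GENCODE M21. Values were taken back to FPKM, summed per gene and tested on log2(FPKM + 1), pseudocount 1, for the 16970 genes at 1 FPKM or more in 3 libraries.

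One limma fit (version 3.58.1, R 4.3.3, trend and robust) with a mean per group gave all 5 contrasts, two-sided, with Benjamini-Hochberg adjustment over all tested genes at 0.05. On simulated data it recovered 65% of log2 changes of 1 and 84% of changes of 2 in the flox tumour contrast, 8.03% of calls being false. Of changes of 1 it recovered 55% between genotypes in adjacent tissue, 60% in tumours and 30% for the interaction. The simulation changed far fewer genes than the tumour comparisons called, with independent noise, so recovery in the data may differ. Alternatives covered pseudocount, filter, scaling, groups fitted, moderation, replicate block, transcripts summed and each library left out.

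Members and lists were chosen with earlier results of these data known. Named were members called in a contrast (up to 12 a direction), the 6 most abundant, the highest of each class, the smallest p per contrast, up to 5 called genes of each other list per contrast and Trappc4. The Hjurp and Ubn1 calls, and names given as ends of a range or for sequence or annotation features, were chosen after values were seen. Stem-loops came from GENCODE M21 transcripts and promoter windows from RefSeq, matched through its synonyms.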

Additional observations from a re-analysis of the deposited data

How the results depend on the processing

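The direction of the members called in flox tumours was the same under all alternatives that tested them, and so was that of those called in ΔIEC tumours. Hist1h2bc was not tested where only single-exon transcripts of the members were summed. The counts of calls moved (2 higher and 3 lower in flox, 3 higher and 2 lower in ΔIEC mice). Members called higher in flox tumours were 17 on the rescaled protein-coding values and 13 under quantile normalization, and 1 with no filter, without trend and robust moderation, or with the replicate block by title number, under which flox Hist1h3g (adjusted p = 0.0588), ΔIEC Hist2h2ab (0.0601) and the flox call of the 3′ processing list were lost. Of all genes, 44% and 18.2% were called higher on those 2 scales and 2650 of 31599 with no filter. Without that moderation 2816 of 16970 were higher, and with that block 2573. Members called lower in flox tumours were 0 and 1 on those 2 scales, beside 11% and 17.6% of all genes, and the median was 0.72 and 0.63. In ΔIEC tumours 5 were called higher and 0 lower on the rescaled values, 1 lower under quantile normalization, without trend and robust moderation, or with the replicate block, 1 higher and 0 lower with no filter, and 0 in each direction with the ΔIEC groups alone. Of all genes, 31.1% were higher and 9.43% lower on the rescaled values, and 14.1% lower under quantile normalization. No filter gave 2080 higher and 2251 lower of 31599, and the ΔIEC groups alone 1136 and 1428 of 16970. Leaving out 1 library gave 1 to 4 higher and 1 to 3 lower in flox, and 0 to 6 higher and 0 to 1 lower in ΔIEC tumours. Over all genes it gave 1659 to 2610 higher and 2232 to 3301 lower in flox, and 1364 to 2354 and 1546 to 2724 in ΔIEC tumours. Among the 8 members called in a tumour comparison, differences that had not passed changed sign for 2: Hist2h2ab in flox tumours (0.35 rescaled, and -0.23 to 0.13 over left-out libraries) and Hist1h1c in ΔIEC tumours (0.0405 rescaled). Over all 58 tested members, 49 were above 0 in each genotype, 42 to 52 over left-out libraries in flox and 23 to 52 in ΔIEC tumours, lowest without ΔIEC adjacent replicate 1. The cause was not tested; no filter adds genes to the adjustment and a left-out library removes one. Genotype contrasts and the interaction gave 0 calls among members under all alternatives run. Each flox adjacent library shared a description code with the flox tumour library of its number. So did replicates 2 and 3 of the ΔIEC groups, but not replicate 1. The labels do not say whether a shared code marks the same mouse. Libraries with the same code did not all deviate together (correlations of -0.19 to 0.10 in flox mice, 0.05 and 0.17 in ΔIEC mice). Flox adjacent replicate 1 correlated more with flox tumour replicate 2 (0.16) than with its own number. With 3 libraries a group, such correlations cannot decide whether libraries came from the same mouse, and the main fit left them unpaired. The replicate block by description code left the counts within 1.5 times. FPKM hold no depth, so counting error is unknown.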
